A study of Solanum pimpinellifolium with 60 samples.

Results

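The genes described here are the gibberellin metabolism genes of tomato that have been named in the GA20ox, GA3ox and GA2ox families, 5 for synthesis and 4 for breakdown, together with PROCERA, the DELLA gene that mediates the response to the hormone. They were chosen by identifier, which gave 10 of the 34725 genes in the count table. The synthesis genes are GA20ox1 (Solyc03g006880), GA20ox2 (Solyc06g035530), GA20ox3 (Solyc11g072310), GA3ox1 (Solyc06g066820) and GA3ox2 (Solyc03g119910). The breakdown genes are GA2ox1 (Solyc05g053340), GA2ox2 (Solyc07g056670), GA2ox4 (Solyc07g061720) and GA2ox5 (Solyc07g061730), and PROCERA is Solyc11g011260. Of the 10, 8 passed the filter on low counts, as did 18901 genes in all. GA20ox3 and GA3ox1 did not pass it and were not tested.

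Expression was measured in 60 libraries by 3′ Tag RNA-seq, a method that reads only the 3′ end of each mRNA. The groups were the lc, fas and lc/fas near-isogenic lines (NILs) and the wild type (WT), each at 5 stages with 3 replicates. The stages were the sympodial shoot apical meristem (SYM), the floral and inflorescence meristems in 1 sample (F&IM), and buds of flowers initiated 2, 4 or 6 days earlier (dpi). All 4 genotypes had the background of Solanum pimpinellifolium LA1589, a small-fruited wild relative of tomato to which the alleles had been backcrossed repeatedly, and the WT and the 3 NILs were derived from 1 backcross population. The lc NIL carried base changes downstream of SlWUS, the fas NIL an inversion with one breakpoint in the promoter of SlCLV3 and another in SlYABBY2b, and the lc/fas NIL both alleles. Each NIL therefore also held a donor segment around its locus, and that of fas is on chromosome 11, which is also the chromosome in the identifiers of GA20ox3 and PROCERA. Distances on that chromosome were not looked up. Tissue was dissected under the microscope from about 300 pooled inflorescences per genotype, taken from greenhouse plants aged between 5 and 7 weeks.

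Gibberellins are diterpenoid hormones that promote stem growth, flower development and fruit set. GA20ox enzymes carry out the late oxidation steps that lead to the direct precursors, and GA3ox enzymes turn these precursors into the active hormone. GA2ox enzymes inactivate active gibberellins and their precursors. Active hormone is bound by GID1 receptors, which then target DELLA proteins such as PROCERA for degradation, and DELLA proteins otherwise restrain gibberellin responses. In shoot apices of several plant species, class I KNOX proteins such as STM are known to repress GA20ox genes and to promote GA2ox genes, which keeps active gibberellin low in the meristem.

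In units of 1000000 counts, library totals lay between 0.441 and 9.17, and their median was 4.71. The smallest belonged to fas at 6 dpi, replicate 3, and every other library held at least 2.04 of these units. Levels are given as reads per 1000000 counts of the library (RPM). A 3′ tag protocol yields about 1 fragment per transcript, so RPM was not divided by gene length and is also the scale on which genes are compared. Comparisons between genes assume that their 3′ ends were captured and annotated equally well, which was not checked. Replicates correlated at r = 0.910 to 0.989. The tissue labels were matched by their markers. AN, a floral meristem identity gene, averaged 1.20 RPM in the SYM, 10.8 RPM in the F&IM and 89.5 RPM at 2 dpi. FA, another gene of this kind, separated these stages less, with 155, 219 and 260 RPM in the same order. The floral organ genes TAP3 and TAG1 averaged 1148 and 94.3 RPM at 4 dpi, against 18.0 and 2.36 RPM at 2 dpi. SlYABBY2b, which the fas inversion breaks, stood at 6.11 ± 3.91 RPM in the fas SYM and 5.80 ± 1.26 RPM in the lc/fas SYM, against 30.1 ± 3.56 RPM in the WT SYM (SD, n = 3). In pooled tissue, fewer cells that express a gene cannot be told apart from less RNA per cell.

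The members covered a wide range of levels. PROCERA averaged 43.2 RPM over the 60 libraries, GA2ox4 31.4 RPM and GA2ox5 31.0 RPM. The synthesis genes lay well below these, with 6.49 RPM for GA20ox2, 5.29 RPM for GA20ox1 and 1.11 RPM for GA3ox2. GA2ox2 averaged 2.65 RPM and GA2ox1 1.00 RPM. GA3ox1 had 53 counts in all, spread over 34 libraries with at most 4 in any of them. GA20ox3 had 20 counts in 14 libraries, also with at most 4. None of these 20 counts came from the SYM, where a count of 0 over the 12 libraries together allows a level of up to 0.0510 RPM, a limit that covers counting error only.

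**Figure D1:**
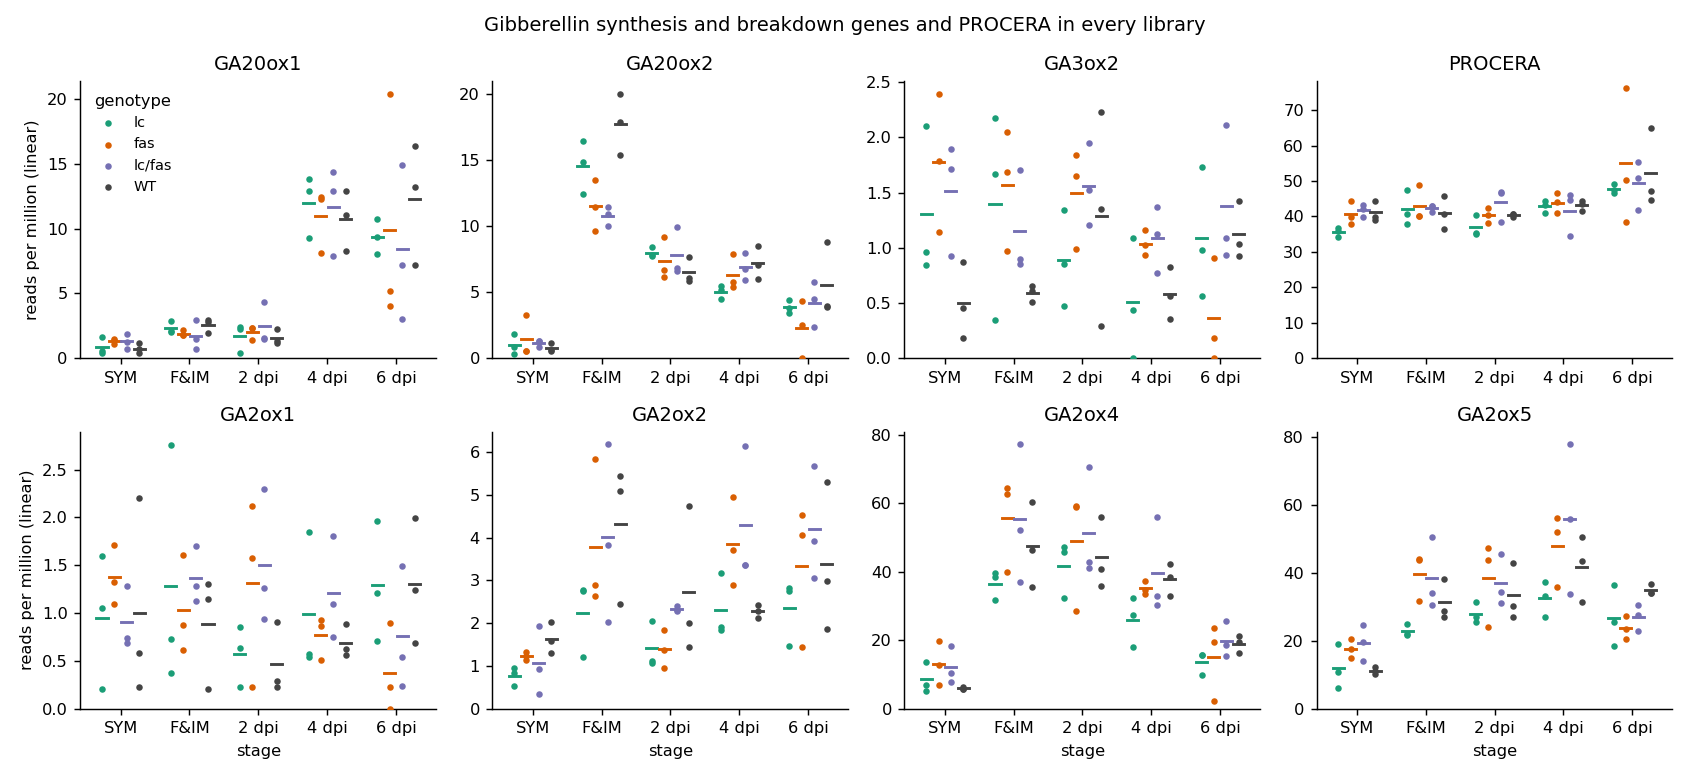
Level of each of the 8 tested genes in every library, in RPM on linear axes that start at 0, by stage and genotype. Each point is 1 library and each bar the mean of 3. GA20ox2 is highest in the F&IM and GA20ox1 at 4 and 6 dpi, while PROCERA lies between 34.1 and 76.1 RPM throughout.

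The 5 stages were compared over the 4 genotypes to follow the genes from meristem to bud, with edgeR's quasi-likelihood test and Benjamini-Hochberg adjustment over all 18901 genes. An adjusted p under 0.1 counted as passing. GA20ox1, GA20ox2, GA2ox2, GA2ox4, GA2ox5 and PROCERA differed between stages, 6 of the 8 tested, where 82.3% of all tested genes did. The adjusted p was 5.36e-23 for GA20ox1, 1.87e-22 for GA20ox2 and 6.66e-19 for GA2ox4. It was 5.69e-13 for GA2ox5, 6.46e-08 for GA2ox2 and 3.04e-07 for PROCERA. GA3ox2 (adjusted p = 0.366) and GA2ox1 (adjusted p = 0.950) did not pass. Stages that share a genotype and a replicate number are called a collection here, of which there were 12. The labels do not say that these stages were collected together, and they may not be independent of one another. Stage calls counted below were the same in number within 1.5 times when each collection was left out in turn, and a fit to the 15 WT libraries alone is given where it changed a call.

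GA20ox2, a GA20-oxidase, was the most abundant synthesis gene of the F&IM. Over the 12 libraries of a stage, its lowest, median and highest levels were 0.319, 0.855 and 3.29 RPM in the SYM and 9.64, 12.96 and 19.96 RPM in the F&IM. At 2 dpi they were 5.80, 7.26 and 9.90 RPM, at 4 dpi 4.46, 5.96 and 8.49 RPM, and at 6 dpi 0, 3.88 and 8.77 RPM. Every F&IM library thus lay above every SYM library, and above all but 1 of the bud libraries. The WT libraries alone showed the same sequence, with 0.552, 0.583 and 1.13 RPM in the SYM, 19.96, 15.3 and 17.9 RPM in the F&IM and 7.68, 6.03 and 5.80 RPM at 2 dpi.

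GA20ox2 rose 11.3-fold in the F&IM over the SYM (log2 value 3.50, standard error 0.20, adjusted p = 9.60e-23 by edgeR's quasi-likelihood test). It was then 1.79-fold lower at 2 dpi than in the F&IM (log2 fold change -0.84, standard error 0.16, adjusted p = 1.81e-05). The 4 and 2 dpi buds did not differ beyond the replicate spread (log2 fold change -0.20, adjusted p = 0.379). At 6 dpi GA20ox2 fell again against 4 dpi (log2 fold change -0.56, standard error 0.18, adjusted p = 0.0200), although in the WT libraries alone that step did not pass (-0.43, adjusted p = 0.696). The 0 at 6 dpi came from the shallowest library, where it allows up to 6.80 RPM. The SYM value of 3.29 RPM came from fas replicate 1, with 24 counts, and the other SYM libraries held between 1 and 7 counts.

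GA20ox1, the second GA20-oxidase, was the most abundant synthesis gene at 4 and 6 dpi. Its lowest, median and highest levels were 0.368, 1.10 and 1.90 RPM in the SYM, 0.673, 2.05 and 2.98 RPM in the F&IM and 0.428, 1.91 and 4.31 RPM at 2 dpi. They were 7.85, 12.4 and 14.3 RPM at 4 dpi and 3.05, 8.68 and 20.4 RPM at 6 dpi. All 12 libraries at 4 dpi lay above all 12 at 2 dpi. The WT libraries alone held 12.9, 8.30 and 11.02 RPM at 4 dpi, against 1.36, 1.15 and 2.23 RPM at 2 dpi.

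The step to 4 dpi was 6.10-fold over 2 dpi (log2 fold change 2.61, standard error 0.23, adjusted p = 5.62e-15), with all 12 collections higher. A smaller rise came earlier, at 1.98-fold in the F&IM over the SYM (log2 value 0.98, standard error 0.31, adjusted p = 0.0125), higher in 11 of 12 collections. The 2 dpi buds and the F&IM did not differ beyond their spread (adjusted p = 0.710), nor did the 6 and 4 dpi buds (adjusted p = 0.325). Floral organ genes rose at the same step, as given above for TAP3 and TAG1, and the summed level of 3 Rubisco small subunit genes, markers of green tissue, averaged 2371 RPM at 4 dpi and 1149.6 RPM at 2 dpi in the WT. The class I KNOX gene Solyc02g081120, a homolog of STM, averaged 164 RPM at 4 dpi and 409.5 RPM at 2 dpi over the 4 genotypes. At the first step it ran in the same direction as GA20ox1 and GA20ox2, with 278 RPM in the SYM and 472 RPM in the F&IM. The part of the organ, Rubisco and KNOX genes in the changes of GA20ox1 was not tested.

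GA3ox2, whose product catalyses the last step to active hormone, stayed near 1 RPM, with medians of 1.05 RPM in the SYM, 0.933 RPM in the F&IM, 1.35 RPM at 2 dpi, 0.880 RPM at 4 dpi and 0.957 RPM at 6 dpi. No library held more than 13 counts of it. It was lower at 4 than at 2 dpi in 11 of 12 collections, but that step did not pass (log2 fold change -0.61, standard error 0.31, adjusted p = 0.121). At this depth no difference between stages was detectable for the gene.

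Among the 4 breakdown members, GA2ox4 and GA2ox5 supplied nearly all counts. GA2ox homologs outside the members also reached high levels, as given below. GA2ox4 and GA2ox5 have consecutive identifiers and related products, so reads of one could have been assigned to the other, and their separate levels are uncertain to that extent. GA2ox4 had a lowest, median and highest level of 5.11, 7.39 and 19.9 RPM in the SYM and of 31.7, 43.3 and 77.2 RPM in the F&IM. At 2 dpi these were 28.5, 44.4 and 70.5 RPM, at 4 dpi 18.1, 33.3 and 56.1 RPM, and at 6 dpi 2.27, 17.4 and 25.7 RPM. The SYM and F&IM libraries did not overlap. The lowest 6 dpi value, 2.27 RPM, was a single count in the shallowest library.

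GA2ox4 rose 4.85-fold in the F&IM over the SYM (log2 value 2.28, standard error 0.17, adjusted p = 5.90e-17). Between 2 dpi and the F&IM it did not change beyond the spread (adjusted p = 0.922). It fell at 4 dpi against 2 dpi (log2 fold change -0.40, standard error 0.15, adjusted p = 0.0338), and this was lost in the WT alone (-0.19, adjusted p = 0.699). The fall at 6 dpi against 4 dpi was larger (log2 fold change -0.92, standard error 0.16, adjusted p = 1.67e-05), with all 12 collections lower.

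GA2ox5 peaked later than GA2ox4. It had a lowest, median and highest level of 6.07, 14.4 and 24.6 RPM in the SYM, 21.7, 31.0 and 50.6 RPM in the F&IM and 24.1, 31.3 and 47.2 RPM at 2 dpi. The values were 26.9, 40.3 and 77.9 RPM at 4 dpi and 18.3, 27.4 and 36.6 RPM at 6 dpi. Ranges of neighbouring stages overlapped at each step. The gene rose 2.16-fold in the F&IM over the SYM (log2 value 1.11, standard error 0.15, adjusted p = 8.53e-09) and did not change beyond the spread at 2 dpi (adjusted p = 0.636). At 4 dpi, when GA2ox4 fell, GA2ox5 rose over 2 dpi (log2 fold change 0.40, standard error 0.14, adjusted p = 0.0169), higher in 11 of 12 collections. At 6 dpi it fell against 4 dpi (log2 fold change -0.58, standard error 0.14, adjusted p = 0.00123), lower in 11 of 12 collections. In the WT alone neither of these last changes passed (0.35, adjusted p = 0.382, and -0.27, adjusted p = 0.719).

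GA2ox2, another GA2-oxidase, was expressed at a lower level and followed the meristem step too. Its medians were 1.19 RPM in the SYM, 2.84 RPM in the F&IM, 1.92 RPM at 2 dpi, 3.03 RPM at 4 dpi and 3.02 RPM at 6 dpi. It rose in the F&IM over the SYM (3.03-fold, standard error of the log2 fold change 0.25, adjusted p = 4.18e-07), fell at 2 dpi against the F&IM (log2 fold change -0.85, standard error 0.23, adjusted p = 0.00300) and rose at 4 dpi over 2 dpi (log2 fold change 0.75, standard error 0.23, adjusted p = 0.00821). The last of these ran the other way in the WT alone (-0.19, adjusted p = 0.905), where the libraries held 2.12, 2.28 and 2.43 RPM at 4 dpi and 4.74, 1.44 and 2.01 RPM at 2 dpi. In the WT alone the other changes of GA2ox2 did not pass either (adjusted p = 0.122 and 0.537), nor did its stage effect (adjusted p = 0.193). GA2ox1 had medians between 0.801 and 1.14 RPM and showed no step that passed.

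PROCERA was the steadiest member. Its lowest, median and highest levels were 34.1, 39.9 and 44.5 RPM in the SYM, 36.5, 41.0 and 48.8 RPM in the F&IM, 35.0, 40.4 and 46.8 RPM at 2 dpi and 34.6, 43.8 and 46.7 RPM at 4 dpi. At 6 dpi they were 38.5, 48.2 and 76.1 RPM. The only step that passed was the last, 1.22-fold at 6 dpi over 4 dpi (log2 fold change 0.29, standard error 0.07, adjusted p = 0.00116), with 11 of 12 collections higher and the ranges overlapping. The 2 highest libraries were replicate 1 of fas with 76.1 RPM and replicate 1 of the WT with 65.1 RPM. The step had the same size in the WT alone but did not pass there (0.26, adjusted p = 0.585), nor did the stage effect (adjusted p = 0.179).

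Counted by step, 5 of the 8 tested members rose in the F&IM over the SYM and none fell, where 15.9% of all tested genes rose and 15.5% fell. At 2 dpi, 2 members fell against the F&IM and none rose, where 20.2% of all genes rose and 19.6% fell. At 4 dpi, 3 rose and 1 fell against 2 dpi, where 21.3% rose and 21.9% fell, and at 6 dpi 1 rose and 3 fell against 4 dpi, where 15.1% rose and 9.78% fell. The median log2 fold change of the 8 members was 1.05 at the first step, against 0.00 over all genes, and -0.09, 0.01 and -0.13 at the next, against -0.01, -0.02 and 0.01. In the WT alone 1 member passed at each of the last 3 steps: GA20ox2 at 2 dpi, GA20ox1 at 4 dpi and GA2ox4 at 6 dpi. The WT fit, with 15 libraries, called 5.15%, 9.93% and 2.58% of all genes at these steps.

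**Figure D2:**
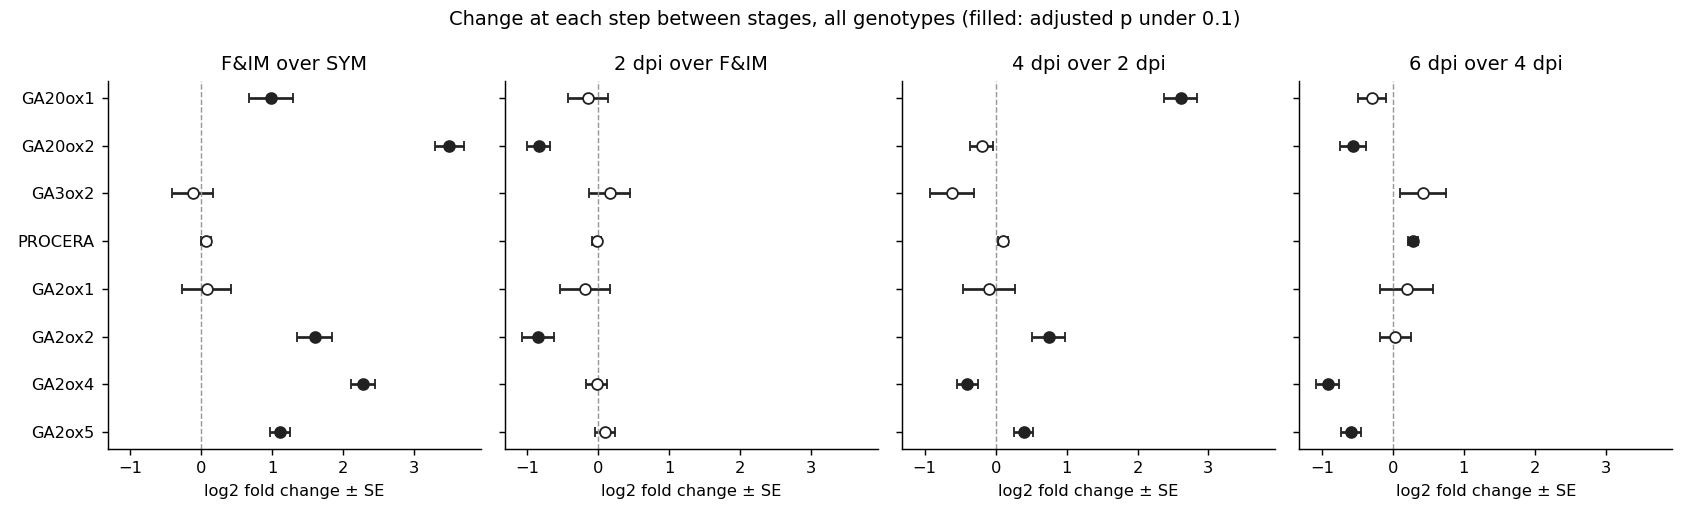
Log2 fold change of the 8 tested genes at each step between neighbouring stages over the 4 genotypes, later stage over earlier stage. Points are estimates, bars are 1 standard error, and filled points passed an adjusted p under 0.1. The first step has 5 filled points, all to the right of 0, with GA20ox2 at 3.50, and the third has GA20ox1 at 2.61.

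The balance of synthesis against breakdown was described by summing RPM over the 5 synthesis genes and over the 4 breakdown genes in each library. No test was applied to these sums. RNA levels of enzymes are not rates, so the ratio compares transcripts only. Breakdown exceeded synthesis in all 60 libraries. Summed synthesis averaged 3.60 ± 1.41 RPM in the SYM, 17.3 ± 3.58 RPM in the F&IM, 10.98 ± 1.74 RPM at 2 dpi, 18.7 ± 2.75 RPM at 4 dpi and 15.2 ± 5.97 RPM at 6 dpi (SD, n = 12 libraries). Summed breakdown averaged 27.3 ± 10.1 RPM in the SYM, 86.7 ± 24.3 RPM in the F&IM, 83.7 ± 21.2 RPM at 2 dpi, 83.3 ± 23.2 RPM at 4 dpi and 49.3 ± 10.7 RPM at 6 dpi.

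Both sums were thus lowest in the SYM and higher in the F&IM in all 12 collections, but later they parted. Synthesis was lower at 2 dpi than in the F&IM in all 12 collections and higher at 4 than at 2 dpi in all 12, while breakdown was higher at 4 dpi in 6 of 12. At 6 dpi breakdown was lower than at 4 dpi in all 12 collections and synthesis in 7. Counts of breakdown genes outnumbered those of synthesis genes 8.42-fold in the SYM, 5.27-fold in the F&IM, 7.76-fold at 2 dpi, 4.48-fold at 4 dpi and 3.75-fold at 6 dpi, as means over libraries. As log2 of synthesis over breakdown, the means were -2.95 ± 0.64, -2.31 ± 0.53, -2.91 ± 0.41, -2.12 ± 0.36 and -1.77 ± 0.68 in the same order. The ratio was higher in the F&IM than in the SYM in 11 of 12 collections, higher at 2 dpi than in the F&IM in 2, higher at 4 than at 2 dpi in 12, and higher at 6 than at 4 dpi in 7. The first 3 of these directions depended on which genes were summed and how. Over 6 forms of the ratio, the F&IM mean was above the SYM mean in 3, the 2 dpi mean above the F&IM mean in 3, the 4 dpi mean above the 2 dpi mean in 5 and the 6 dpi mean above the 4 dpi mean in 6. GA3ox alone over GA2ox gave -6.06 in the F&IM and -4.36 in the SYM, and the mean of log2(RPM + 1) gave -2.07 in the F&IM and -1.67 in the SYM. The value closest to parity, -0.42, was that of the shallowest library.

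**Figure D3:**
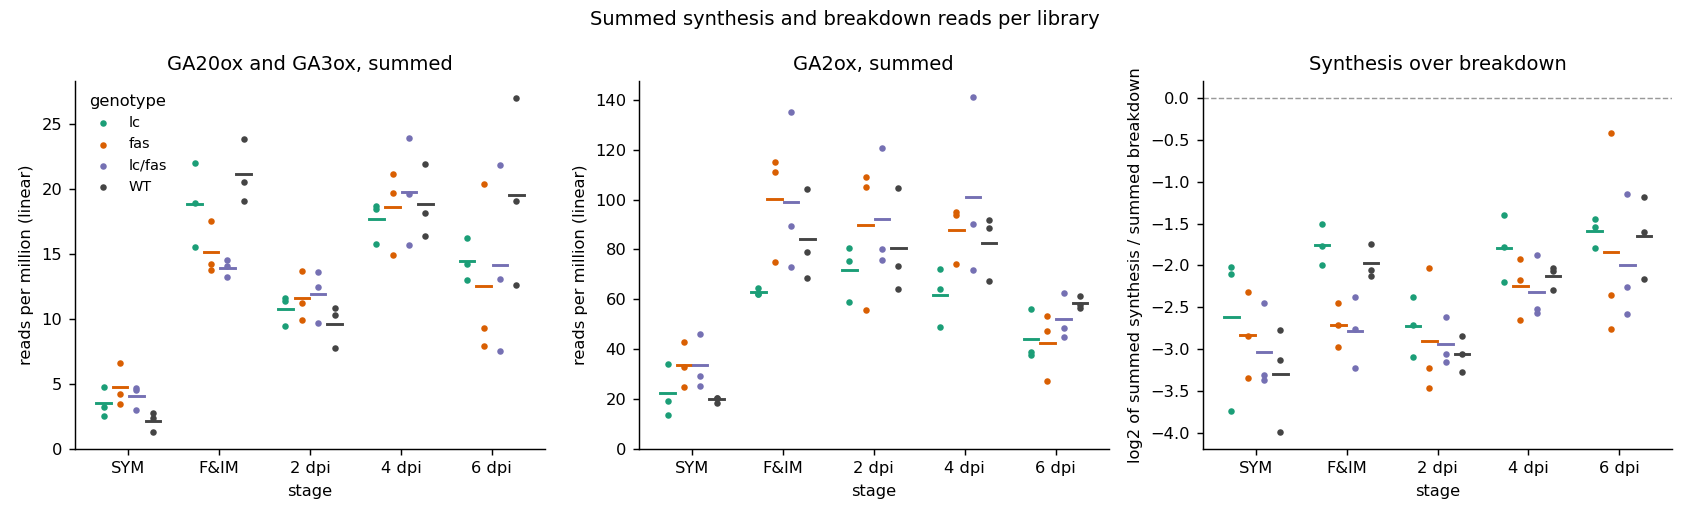
Summed RPM of the 5 synthesis genes and of the 4 breakdown genes, on linear axes, and log2 of their ratio, in every library by stage and genotype. Points are libraries and bars are means of 3. All 60 ratios lie under the dashed line at 0, and the 2 dpi ratios lie below the 4 dpi ratios in every collection.

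Within each side, different genes led at different stages. GA2ox4 and GA2ox5 together gave between 90.7% (SYM) and 96.5% (2 dpi) of the counts of the 4 breakdown members as stage means. The share of GA2ox4 in the counts of this pair was 39.0 ± 6.16% for the SYM and 59.6 ± 3.10% for the F&IM (SD, n = 12). In buds it was 57.5 ± 2.52% at 2 dpi, then 44.2 ± 5.14% at 4 dpi and finally 36.5 ± 10.8% at 6 dpi. Its share was higher in the F&IM than in the SYM in all 12 collections and lower at 4 than at 2 dpi in all 12. GA20ox1 gave 50.8 ± 18.8% of the counts of GA20ox1 and GA20ox2 in the SYM, where few counts stand behind the share, and 13.6 ± 4.11% in the F&IM. In buds its share was 20.3 ± 8.45% at 2 dpi, then 63.8 ± 6.52% at 4 dpi and finally 68.8 ± 12.6% at 6 dpi. It was higher at 4 than at 2 dpi in all 12 collections. At 4 dpi the leading gene of each pair had thus become the other one, GA20ox1 for synthesis and GA2ox5 for breakdown, in the stage means of both shares.

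**Figure D4:**
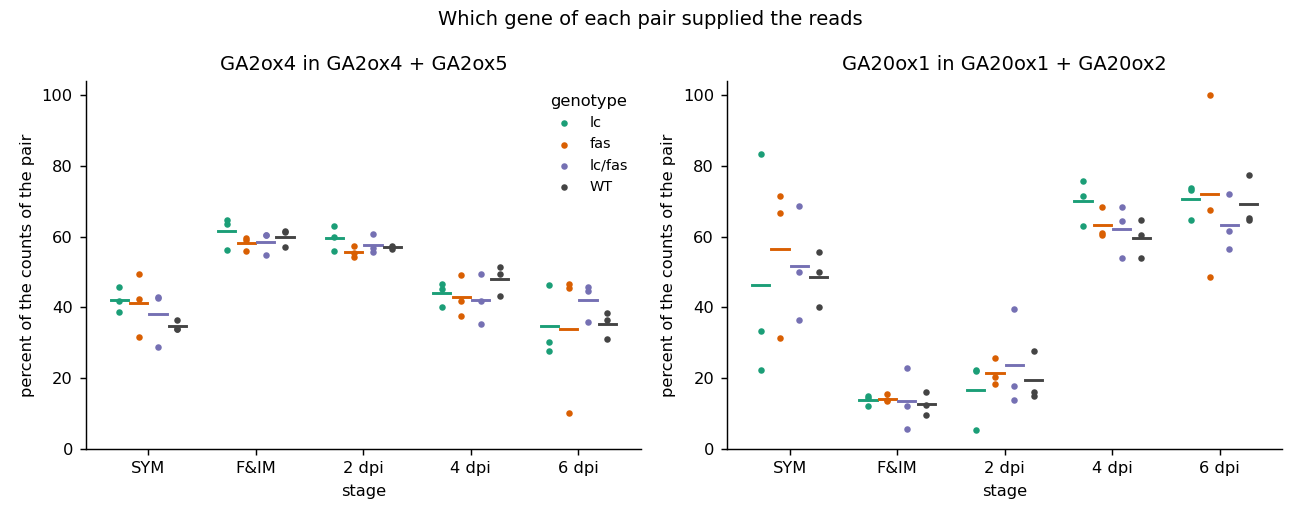
Share of GA2ox4 in the counts of GA2ox4 and GA2ox5, and share of GA20ox1 in the counts of GA20ox1 and GA20ox2, in percent, in every library by stage and genotype. Points are libraries and bars are means of 3. The GA2ox4 share is highest in the F&IM and at 2 dpi, where the GA20ox1 share is lowest.

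The NILs were compared with the WT over the 5 stages to ask whether the alleles that enlarge the meristem moved these genes. The genotype effect passed for 1 of the 8 tested members, GA2ox5 (adjusted p = 0.0430 by edgeR's quasi-likelihood test), where 3.23% of all tested genes passed. Its call did not hold when collections were treated as random blocks in limma-voom (adjusted p = 0.450) nor without lc replicate 1 (0.126), lc replicate 2 (0.252) or lc/fas replicate 1 (0.127). GA2ox2 (0.164) and GA2ox4 (0.155) did not pass by edgeR, while DESeq2 called GA2ox4 as well (0.0748) and a replicate block called both (0.00633 and 0.0384). GA2ox2 passed without fas replicate 1, lc/fas replicate 2 or 3 or WT replicate 2 (adjusted p between 0.0455 and 0.0987), and GA2ox4 without fas replicate 3 or lc/fas replicate 2 or 3 (between 0.0129 and 0.0693). Taken one by one, the 3 NILs gave 0 of 8 members against the WT by edgeR and by DESeq2, where 0.323% of all genes passed for lc, 2.22% for fas and 1.65% for lc/fas. At an unadjusted p under 0.05 lc had 2 members, fas 1 and lc/fas 1. Of all 18901 genes, 1623 were under 0.05 for lc, 2694 for fas and 1782 for lc/fas. GA20ox2 in fas, at a log2 fold change of -0.22 (adjusted p = 0.530 by edgeR), passed without fas replicate 1 (-0.47, adjusted p = 0.0814).

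GA2ox5 lay lower in lc and higher in fas and lc/fas than in the WT, at log2 fold changes of -0.28, 0.16 and 0.24 with standard errors of 0.13, 0.13 and 0.12 (adjusted p = 0.535, 0.576 and 0.554). In the F&IM its levels were 21.7, 22.0 and 24.8 RPM in lc, 43.9, 43.7 and 31.6 RPM in fas and 50.6, 34.1 and 30.4 RPM in lc/fas, against 38.1, 28.9 and 26.9 RPM in the WT. Every lc library lay below every WT library there, as for 3.24% of all genes, while the other NILs overlapped with the WT. At 4 dpi they were 33.2, 26.9 and 37.2 RPM in lc, 56.1, 51.9 and 35.9 RPM in fas and 77.9, 55.7 and 33.8 RPM in lc/fas, against 50.4, 31.3 and 43.3 RPM in the WT, with overlap in each case. At 6 dpi the order was the opposite for fas and lc/fas, with 23.5, 27.2 and 20.4 RPM in fas and 30.6, 23.0 and 27.6 RPM in lc/fas, against 33.9, 34.0 and 36.6 RPM in the WT. Every fas and lc/fas library lay below every WT library at that stage, as for 0.683% of all genes, and lc overlapped with the WT at 18.3, 25.5 and 36.5 RPM. The fas value of 20.4 RPM rests on 9 counts in the shallowest library, so its place below the WT is uncertain. The 6 dpi log2 fold changes of GA2ox5 did not pass (-0.51 for fas and -0.32 for lc/fas, with an adjusted p of 0.336 and 1.00).

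GA2ox4 had the same order of genotypes, with lc at a log2 fold change of -0.22, fas at 0.21 and lc/fas at 0.27 (adjusted p = 0.676, 0.517 and 0.558). The value for lc/fas was -0.051 without lc/fas replicate 1, which had the highest GA2ox4 level of its group at each of the 5 stages. When fas and lc/fas were set against lc and WT together, a comparison added after the values were seen, GA2ox4 and GA2ox5 rose with the fas allele (log2 fold change 0.35, standard error 0.10, adjusted p = 0.0498, and 0.34, standard error 0.09, adjusted p = 0.0215), where 2.04% of all tested genes rose. This is a mean over the 5 stages, and GA2ox5 lay below the WT in fas and lc/fas at 6 dpi as given above. Both calls were lost with random blocks (adjusted p = 0.354 and 0.211) and without lc/fas replicate 1 (0.19, adjusted p = 0.432, and 0.23, adjusted p = 0.206). They were also lost without fas replicate 2 (adjusted p = 0.245 and 0.101), and that of GA2ox4 without any of 5 further collections. The matching comparison for the lc allele gave 0 calls among the members by edgeR and by DESeq2, where 0.307% of all genes passed by edgeR. At an unadjusted p under 0.05 it gave 0 members, where 1149 of all 18901 genes were under it.

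GA2ox2 was lower in lc than in the WT (log2 fold change -0.61, standard error 0.22), without passing the test (adjusted p = 0.377). In the SYM lc held 0.848, 0.958 and 0.526 RPM against 2.02, 1.31 and 1.58 RPM in the WT, which did not overlap (lower in this way for 8.38% of all genes), and in the F&IM 2.78, 1.21 and 2.76 RPM against 5.44, 2.45 and 5.10 RPM, which did. The difference passed without WT replicate 2 (-0.85, adjusted p = 0.0801). GA3ox2 averaged higher in fas (log2 fold change 0.66, standard error 0.28, adjusted p = 0.247) than in the WT, and so it did in the lc/fas NIL (0.72, standard error 0.27, adjusted p = 0.275). PROCERA was within 0.1 log2 units of the WT in each NIL, at -0.09, 0.02 and 0.01 for lc, fas and lc/fas (standard error 0.06 each).

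**Figure D5:**
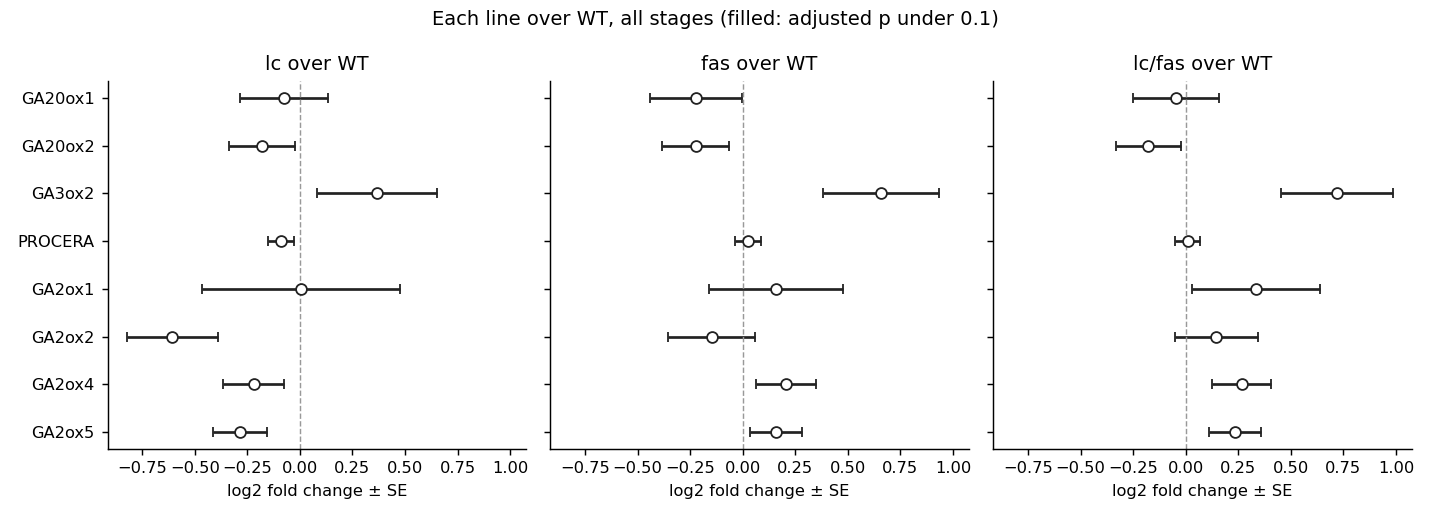
Log2 fold change of the 8 tested genes in lc, fas and lc/fas over the WT across the 5 stages. Points are estimates and bars 1 standard error, and a filled point would mark an adjusted p under 0.1. No point is filled, and PROCERA has the shortest bars.

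Departure of lc/fas from the sum of the single NILs was tested as an lc by fas interaction, and 0 of the 8 members passed (0.164% of all genes did). At an unadjusted p under 0.05 there were 2 members, where 1207 of all 18901 genes were under it. They were GA2ox2 with a log2 value of 0.90 (standard error 0.30, adjusted p = 0.523 by edgeR's quasi-likelihood test) and GA2ox5 with 0.36 (standard error 0.18, adjusted p = 0.781). GA2ox2 passed without fas replicate 1 (1.24, adjusted p = 0.0727). The interaction of genotype with stage, for which the threshold was an unadjusted p of 0.001, also gave 0 of 8 members, where 0.0265% of all genes passed. At an unadjusted p under 0.05 it gave 0 members, where 252 of all 18901 genes were under it. DESeq2 and the random-block fit gave 0 members for both interactions as well, while a replicate block called GA2ox2 for the lc by fas interaction (0.97, adjusted p = 0.0453).

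Within single stages, 0 of the 120 comparisons of a tested member in a NIL with the WT passed by edgeR or DESeq2, where 0.232% of comparisons over all genes passed by edgeR. At an unadjusted p under 0.05 there were 16. Per comparison, between 300 (lc in the F&IM) and 3500 (fas at 6 dpi) of all 18901 genes were under 0.05. Limma-voom with random blocks called 1, given here without the share of all genes in that fit. The libraries of NIL and WT did not overlap in 24 of the 120, 13 with the NIL above and 11 below, where 9.12% of comparisons over all genes did not overlap. The 3 comparisons at a stage share the WT libraries. All values below are therefore descriptions of libraries and not calls.

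In the SYM, 3 of the 8 tested members lay above the WT in every library of both fas and lc/fas, where 2.28% of all genes did so in both. GA2ox4 had 12.9, 19.9 and 6.87 RPM in fas and 18.4, 7.92 and 10.3 RPM in lc/fas, against 5.89, 6.27 and 5.66 RPM in the WT. GA2ox5 had 17.6, 20.4 and 14.9 RPM in fas and 24.6, 19.5 and 14.0 RPM in lc/fas, against 10.3, 12.2 and 11.1 RPM in the WT. GA3ox2 had 1.78, 2.39 and 1.14 RPM in fas and 1.71, 0.921 and 1.90 RPM in lc/fas, against 0.184, 0.874 and 0.453 RPM in the WT. The ratios of means were 2.23 and 2.06 for GA2ox4, 1.57 and 1.73 for GA2ox5 and 3.52 and 3.00 for GA3ox2, in fas and lc/fas over the WT. The lc libraries overlapped with the WT for all of these. They held 13.8, 5.11 and 6.84 RPM of GA2ox4, 19.1, 6.07 and 10.8 RPM of GA2ox5 and 0.848, 0.958 and 2.10 RPM of GA3ox2.

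In these SYM libraries GA2ox4 had a log2 fold change over the WT of 1.12 in fas and 0.99 in lc/fas, each with a standard error of 0.40 (adjusted p = 0.606 and 0.534). For GA3ox2 they were 1.68 and 1.45, each with a standard error of 0.60 (adjusted p = 0.606 and 0.554), with 1 to 6 counts per WT library. Further genes that were higher in the F&IM than in the SYM were looked up in the same SYM libraries. AN had 1.37, 1.59 and 0.286 RPM in fas and 3.64, 1.47 and 1.55 RPM in lc/fas, against 0.368, 0.729 and 0.226 RPM in the WT, with overlap in fas. SlWUS had 18.9, 17.3 and 20.3 RPM in fas and 21.6, 21.0 and 22.6 RPM in lc/fas, against 10.3, 9.91 and 13.4 RPM in the WT, with no overlap. The paper itself reports increased SlWUS in the SYM of the single and double mutants. The GA2ox2 homolog Solyc02g070430, which had a log2 fold change of 3.59 in the F&IM over the SYM, had 5.49, 3.98 and 10.01 RPM in fas and 8.13, 4.60 and 7.76 RPM in lc/fas, against 6.81, 5.83 and 7.69 RPM in the WT, with overlap. The floral organ gene TM5 had 4.39, 4.78 and 4.01 RPM in fas and 7.28, 4.79 and 5.34 RPM in lc/fas. In the WT it had 4.05, 3.79 and 3.17 RPM, with overlap in fas. FA lay between 155 and 165 RPM in fas, 156 and 194 RPM in lc/fas, and 82.4 and 153 RPM in the WT. The STM homolog lay between 258 and 358 RPM in fas, 299 and 355 RPM in lc/fas, and 160 and 249 RPM in the WT. Neither of these overlapped with the WT in fas or lc/fas. In lc, SlWUS had 16.1, 16.0 and 15.5 RPM and TM5 6.78, 4.47 and 7.89 RPM, above every WT library. AN, FA, the STM homolog and Solyc02g070430 overlapped with the WT in lc. Whether floral meristem tissue in the SYM samples had a part in the GA2ox values was not tested.

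In the F&IM the synthesis gene GA20ox2 lay below the WT in every library of fas and lc/fas, where 0.91% of all genes did so in both. It had 13.5, 11.4 and 9.64 RPM in fas and 10.9, 11.4 and 9.99 RPM in lc/fas, against 19.96, 15.3 and 17.9 RPM in the WT, and lc overlapped with the WT at 14.8, 16.4 and 12.4 RPM. The means were 0.651 and 0.608 of the WT mean in fas and lc/fas. On the log2 scale the changes were -0.63 and -0.72, and neither passed (adjusted p = 1 for both). GA3ox2, the synthesis gene of the last step, lay on the opposite side. It had 1.69, 0.968 and 2.05 RPM in fas and 1.71, 0.898 and 0.850 RPM in lc/fas, against 0.605, 0.653 and 0.510 RPM in the WT. Every fas and lc/fas library was above every WT library, as for 1.25% of all genes, on 3 to 4 counts per WT library and with no call (adjusted p = 1 for both).

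The log2 ratio of synthesis to breakdown in the F&IM was lower than in the WT in the same NILs. Its values were -1.77, -1.50 and -2.00 in the lc libraries, -2.72, -2.97 and -2.45 in the fas libraries and -3.22, -2.76 and -2.38 for lc/fas, against -2.13, -2.05 and -1.74 in the WT. All fas and lc/fas libraries thus lay below all WT libraries, and lc overlapped with the WT. GA20ox1 and GA20ox2 gave 95.9% of the synthesis counts in the WT F&IM, 88.5% in fas and 89.7% in lc/fas. The synthesis sum there thus follows these genes, while GA3ox2 ran the other way as given above. Summed synthesis averaged 15.1 ± 2.06 RPM in fas and 13.9 ± 0.64 RPM in lc/fas, against 21.1 ± 2.41 RPM in the WT. Summed breakdown averaged 100.4 ± 22.0 and 99.2 ± 32.3 RPM, against 84.0 ± 18.3 RPM in the WT, with overlap. Both sides of the ratio thus differed in their means. Other forms of the ratio were not compared between genotypes. As fold, breakdown counts outnumbered synthesis counts 3.42 ± 0.58-fold in lc, 6.62 ± 1.18-fold in fas and 7.09 ± 2.08-fold in lc/fas, against 3.96 ± 0.54-fold in the WT (SD, n = 3). In the SYM the means ran the other way, at -2.62 in lc, -2.83 for fas and -3.04 for lc/fas, against -3.30 in the WT, but each NIL overlapped with the WT. Summed synthesis in the SYM was 6.59, 4.25 and 3.43 RPM in fas and 4.49, 2.95 and 4.65 RPM in lc/fas, against 1.29, 2.33 and 2.72 RPM in the WT, so that neither of these NILs overlapped with it. At 2 and 4 dpi the group means of the log2 ratio lay between -3.05 and -1.79 and each NIL overlapped with the WT. At 6 dpi they were -1.59 in lc, -1.84 for fas and -2.00 for lc/fas, against -1.65 in the WT, again with overlap. These ratios were not tested.

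At 4 dpi GA2ox2 lay above the WT in every fas and lc/fas library, as for 0.968% of all genes. It had 4.94, 3.72 and 2.89 RPM in fas and 6.15, 3.37 and 3.35 RPM in lc/fas, against 2.12, 2.28 and 2.43 RPM in the WT, and neither difference passed (log2 fold change 0.75 and 0.98, adjusted p = 1.00 and 1).

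At 6 dpi GA20ox1 had 4.06, 5.20 and 20.4 RPM in fas, against 16.4, 7.22 and 13.2 RPM in the WT. The fas value of 20.4 RPM rests on 9 counts in the shallowest library, and the other fas libraries lay below every WT library. With all libraries the log2 fold change was -1.04 (standard error 0.46, adjusted p = 0.214), where 3.01% of all genes passed. Without that library it was -1.42 and passed (adjusted p = 0.0925), where 3.47% of all genes passed. It also passed with random blocks (-1.16, adjusted p = 0.0804) and without WT replicate 2 (-1.33, adjusted p = 0.0408), a setting in which 33.1% of all genes passed. The WT replicates overlapped with lc at 8.04, 9.32 and 10.7 RPM and with lc/fas at 7.20, 3.05 and 14.9 RPM.

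Other genes of the pathway were taken from homologs that the study names in its lists of changed genes, so their changes are not independent evidence. All 11 passed the stage effect, as did 82.3% of all tested genes. In the F&IM 2 rose and 4 fell against the SYM, where 15.9% and 15.5% of all genes did. At 2 dpi 3 rose and 3 fell against the F&IM (20.2% and 19.6% of all genes), at 4 dpi 4 rose and 4 fell against 2 dpi (21.3% and 21.9%), and at 6 dpi 1 rose and 2 fell against 4 dpi (15.1% and 9.78%). Further GA2ox genes are among them. Solyc02g070430, a homolog of Arabidopsis GA2ox2, averaged 6.81 RPM in the SYM, 81.9 RPM in the F&IM, 18.0 RPM at 2 dpi, 8.60 RPM at 4 dpi and 10.2 RPM at 6 dpi (log2 fold change of F&IM over SYM 3.59, standard error 0.14, adjusted p = 2.17e-30). Solyc01g058030, a homolog of Arabidopsis GA2ox4, ran the other way, with 81.6, 38.1, 28.5, 16.0 and 14.9 RPM over the same stages (log2 fold change of F&IM over SYM -1.13, standard error 0.10, adjusted p = 4.29e-14).

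With the 4 GA2ox homologs added to the breakdown sum, an alternative chosen after their levels were seen, breakdown averaged 124, 212, 136, 116 and 82.1 RPM over the 5 stages. The log2 ratio of synthesis to breakdown then averaged -5.22, -3.63, -3.63, -2.61 and -2.53. The ratio was lowest in the SYM in this form too, but the 2 dpi buds no longer averaged below the F&IM. The receptor homolog Solyc09g074270 (GID1B in Arabidopsis) averaged 106, 149, 189.8, 272 and 250.3 RPM over the stages and rose at each of the first 3 steps (log2 fold changes 0.48, 0.38 and 0.53, adjusted p = 3.13e-06, 0.000178 and 1.81e-07).

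Of the 11, 3 passed the genotype effect, where 3.23% of all tested genes passed: Solyc12g006460, a homolog of the early synthesis enzyme KAO2 (adjusted p = 0.000852), Solyc01g098390, a homolog of the receptor GID1C (0.00385), and Solyc06g069790, a homolog of GASA6, which belongs to a family of small peptides regulated by gibberellin in Arabidopsis (0.0399). As the 11 were taken from the study's lists of changed genes, this share could be high by that choice alone. It says nothing about the pathway as a whole. The KAO2 homolog was lower in fas (log2 fold change -0.38, standard error 0.08, adjusted p = 0.00491) than in the WT, and so it was in the lc/fas NIL (-0.29, standard error 0.08, adjusted p = 0.0599). In the F&IM it had 139.7, 156 and 155 RPM in fas and 178, 202 and 188 RPM in lc/fas, against 189, 233 and 216 RPM in the WT. All fas libraries thus lay below all WT libraries, while lc/fas overlapped with the WT. The GID1C homolog passed in no single NIL, with lc at a log2 fold change of -0.12, fas at 0.18 and lc/fas at 0.12 (standard error 0.06 each, adjusted p = 0.587, 0.127 and 0.551). The GASA6 homolog was lower in fas (-0.37, standard error 0.09, adjusted p = 0.0192). Random blocks ended all of these calls (adjusted p between 0.109 and 0.645), and that of GASA6 in fas was also lost without fas replicate 2 (-0.20, adjusted p = 0.607) and without WT replicate 1 or 3. The KAO2 call in lc/fas was lost without WT replicate 2 (-0.17, adjusted p = 0.249), lc/fas replicate 1 (-0.21, adjusted p = 0.423), fas replicate 3 or lc replicate 3.

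Among the members themselves, the closest profiles over the 20 group means of log2(RPM + 1) were those of GA20ox2 and GA2ox4, with a Pearson r of 0.92, a synthesis and a breakdown gene that are both high in the F&IM. GA2ox4 and GA2ox5 followed at 0.82, while GA20ox1 and GA20ox2 gave 0.17. These groups share libraries and stages, and the values are descriptions. Over all tested genes, the profiles closest to GA20ox2 were those of Solyc04g005320 (r = 0.981) and Solyc02g084680 (r = 0.959), and the closest to GA20ox1 those of Solyc02g091000 (r = 0.975) and Solyc08g082640 (r = 0.969). For GA2ox4 they were Solyc03g007710 (r = 0.939) and Solyc05g056620 (r = 0.936), for GA2ox5 Solyc11g045530 (r = 0.907) and Solyc02g090460 (r = 0.897). PROCERA was closest to Solyc03g111010 (r = 0.923) and Solyc04g050620 (r = 0.919), and GA2ox2 to Solyc03g117840 (r = 0.868) and Solyc06g069300 (r = 0.845). GA3ox2 and GA2ox1, with few counts, reached no more than 0.733 (Solyc04g014450) and 0.709 (Solyc11g066550).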

How the data were processed

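Expression in pooled, dissected apices and buds was read out in 60 libraries of 3′ Tag RNA-seq. The deposited values are raw counts per gene and library: per the study's methods the authors trimmed low-quality bases and poly-A tails with fqtrim, then aligned and counted the reads with Rsubread against tomato annotation ITAG2.4. The fqtrim version, the counting settings and the strand used: not given in the sources used here. Results of the authors' own DESeq2 likelihood ratio tests were not used. 1 unnamed line, at most 3.10% of a library, was left out.

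Counts were filtered with filterByExpr over the 20 groups, scaled by TMM and fitted with robust quasi-likelihood models in edgeR 4.0.16 (R 4.3.3) on all 60 libraries, with stage + genotype for the stage and genotype comparisons and stage by genotype for the interaction. NIL against WT at a single stage came from 1 model over the 20 groups. P-values were adjusted by Benjamini-Hochberg over all 18901 genes. A gene passed at an adjusted p under 0.1. For the genotype by stage interaction the threshold was an unadjusted p of 0.001, which follows the methods of the study. Levels are counts per 1000000 counts of the library (RPM), and likeness of profiles used log2(RPM + 1). The study calls the replicates biological. The labels do not say that they came from separate plants, so p-values measure the spread between these samples.

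The 10 members, the homologs of the pathway and the markers were chosen with earlier results of these data known. The 11 pathway homologs were taken from the study's annotation in place of the gene table first planned, which annotates none of these identifiers. Named are all members, the homologs that passed a genotype comparison and up to 4 with the smallest p for the stage effect, and, for likeness, the 2 tested genes with the highest Pearson r over the 20 group means. The comparisons by allele, the ratio with homologs and the fit without the fas SYM library of replicate 1 were added after the data were seen. The replicate numbers of lc/fas and WT libraries of a stage deviated together in 15 of 15 pairs (r between 0.150 and 0.799), and a replicate block changed no call of a member in lc/fas against the WT. Alternatives were DESeq2 1.42.0 tests and size factors, total-count scaling, no filter (31952 genes) and a stricter one (10 counts in a proportion of 0.5 of libraries, 16623 genes), a replicate block, limma-voom (limma 3.58.1) with collection as random block, the WT alone, and leaving out each replicate. Figures were drawn with matplotlib 3.10.9.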

Additional observations from a re-analysis of the deposited data

How the results depend on the processing

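Counts of members called kept within 1.5 times of the value reported, or at 0, in most alternatives tried. For the stage effect and for the F&IM over the SYM this held in all 24. The lowest count was 4 for each, in the WT alone, where GA2ox2 passed neither and PROCERA did not pass the stage effect. In the WT alone, 1 member was called at 2 dpi against the F&IM, 1 at 4 against 2 dpi and 1 at 6 against 4 dpi, and GA2ox2 at 4 against 2 dpi turned to -0.19. With 15 libraries in place of 60 fewer genes passed in that fit. The genotype effect called 2 members with DESeq2, 0 with limma-voom and random blocks, and between 0 and 3 when 1 replicate was left out. With a replicate block it called 3, adding GA2ox2 (adjusted p = 0.00633) and GA2ox4 (0.0384), and the block also gave 1 call in lc (GA2ox2, -0.67, adjusted p = 0.0421) and 1 for the lc by fas interaction (GA2ox2, 0.97, adjusted p = 0.0453). Samples of the same number and stage deviated together (r over 0.1) in 8 of 15 cases for lc with the WT, 12 of 15 for fas and 15 of 15 for lc/fas. Mean r was 0.104, 0.177 and 0.333 for same numbers, against -0.052, -0.088 and -0.16 for other numbers. What replicates of 1 number share is not stated, and whether the calls gained rest on it was not tested. Leaving out 1 replicate gave between 0 and 1 calls in lc, 0 and 1 in fas, 0 and 1 for the lc by fas interaction, 0 and 2 for the fas allele, 0 and 2 within stages and 4 and 5 at 4 against 2 dpi. Random blocks gave 0 for the fas allele and 1 within stages, and leaving out the 6 dpi library of fas replicate 3 gave 1 within stages. GA2ox4 in lc/fas ranged between -0.051, without lc/fas replicate 1, and 0.41, without lc/fas replicate 3. Counts of calls in these alternatives stand here without the share of all genes that passed in each setting. Gains and losses are therefore not read as results about the members alone. The cause of these changes was not tested.

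The log2 ratio of synthesis to breakdown depended on which genes were summed. With the mean of log2(RPM + 1) it was -1.67 in the SYM, -2.07 in the F&IM and -2.03 at 2 dpi, so that the F&IM lay below the SYM. Without the most abundant gene of each side it was -2.85 in the SYM, -3.39 in the F&IM and -3.42 at 2 dpi, again with the F&IM below the SYM. GA3ox over GA2ox gave -4.36, -6.06, -5.82, -6.54 and -5.59 over the 5 stages, with the SYM highest, the last over 11 libraries since fas replicate 3 had no GA3ox count, and GA20ox over GA2ox gave -3.70 in the SYM. With the homologs added, as in the report, the values were -5.22, -3.63, -3.63, -2.61 and -2.53. Breakdown stayed above synthesis in the mean of every form tried. For the forms that left out GA20ox or GA3ox genes or added GA2ox homologs, this was fixed in advance. Each of them could only lower the ratio. Leaving out 1 replicate moved the SYM mean between -3.03 and -2.85 and the 6 dpi mean between -1.89 and -1.68. Depth limits GA3ox1, GA3ox2, GA20ox3 and GA2ox1, whose counts per library were mostly in single digits.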

Other observations

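Replicate 1 had the highest level of its group of 3 in 15 of the 20 groups for GA2ox2, 13 for GA2ox4, 12 for GA20ox2 and 11 for GA2ox5. For GA20ox1 and PROCERA it was highest in 7 groups each and for GA3ox2 in 5. The labels do not say what, if anything, libraries of replicate 1 share across genotypes.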
